A study of Mus musculus with 17 samples.

Results

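The 10 genes described here form a signature of intestinal stem cells: Lgr5, Ascl2, Smoc2, Olfm4, Tnfrsf19, Cfi, Slc12a2, Prom1, Lrig1 and Bmi1. They were taken by symbol from the count tables, as 10 of 26422 genes listed in any library, and all 10 passed the filter on low counts in each comparison of summed counts, save that Lgr5 was not tested where it defines the classes. They were followed in the 19877 cells that the authors kept, of 26229 barcodes deposited. 7 of them (Smoc2, Lgr5, Cfi, Tnfrsf19, Slc12a2, Prom1 and Lrig1) also stand among the markers that the study derived from these same cells for one of its stem cell clusters, so their presence together in a cell is not independent evidence.

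The study asked how KPT-330, an inhibitor of the nuclear exporter XPO1, alters the differentiation of mouse small intestinal organoids towards Paneth cells, and it used Seq-Well S3, a bead-in-well method of single-cell RNA sequencing that counts transcripts by unique molecular identifiers (UMIs). The organoids were grown from crypts of wild-type mice, and each library pooled cells from many organoids. The 2 libraries at day 0 came from ENR+CV, a medium with EGF, Noggin, R-spondin 1, the Wnt-activating compound CHIR99021 and valproic acid that enriches for stem cells. From day 0.25 to day 6 there were 7 control libraries in ENR+CD, in which the Notch pathway inhibitor DAPT replaced valproic acid, and 8 libraries in the same medium that also received KPT-330 at 160 nM. EGF, Noggin, R-spondin 1 and CHIR99021 were therefore shared by all 17 libraries. In the comparisons below, untreated means the 2 ENR+CV and 7 control libraries. Day 6 had 2 libraries in each arm and day 3 had 2 with KPT-330, the other conditions had 1 library each, and the labels do not say whether replicates were separate cultures, so p-values measure the spread between these libraries only.

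Intestinal stem cells sit at the crypt base between Paneth cells, divide continuously, and depend on Wnt signalling, which R-spondins reinforce through the Lgr receptors. Notch signalling keeps their daughters from entering the secretory lineages, of which Paneth cells are one. Lgr5 marks the crypt base columnar stem cells, while Bmi1 and Lrig1 have also been used to mark slower cycling or broader populations.

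Over the kept cells, libraries held 3458887 to 12433109 UMIs from 531 to 1547 cells, and 14 barcode sequences occurred in more than 1 library. The libraries differed in the number of genes listed: 5 of them (day 0 replicate 1 and both libraries of day 0.25 and of day 1) listed 19823 to 21652 genes, and the other 12 listed 15576 to 17849. Early and late days can therefore not be told apart from this difference, except at day 0, which has 1 library of each kind, and the changes with days, cycling, Lgr5 and KPT-330 are also given without these 5 libraries, other than the tests of a difference between effects. The epithelial identity of the cells was checked with 7 markers, Epcam among them, whose summed level was 37.8 to 54.2 UMIs per 10000, whereas 8 stromal markers summed to at most 0.0794. Mki67, which marks cycling cells, was found in 77.4% and 83.3% of cells in the day 0 libraries and in 17.8% and 11.4% in the day 6 controls. The 14 Paneth cell markers summed to 33.2 and 48.8 at day 0, to 1450 and 1424 in the day 6 controls and to 2243 and 2157 with KPT-330. Levels below are shares of all UMIs of a library, the Paneth marker UMIs included, whereas the fitted changes are scaled by TMM factors. In summed counts, fewer cells of a type and less RNA per cell cannot be told apart.

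The members are spread over 9 chromosomes in the mm10 assembly (GENCODE annotation). Lgr5 lies at chr10:115450311-115587780 on the minus strand, Ascl2 at chr7:142966829-142969264 (minus), Tnfrsf19 at chr14:60963875-61046490 (minus) and Olfm4 at chr14:79984081-80023139 (plus). Smoc2 lies at chr17:14279506-14404790 (plus), Cfi at chr3:129835884-129875332 (plus), Prom1 at chr5:43993620-44102032 (minus), Lrig1 at chr6:94604529-94700158 (minus) and Bmi1 at chr2:18677018-18686629 (plus). Lgr5 overlaps A930009A15Rik on the opposite strand, and Lrig1 overlaps Slc25a26 on the opposite strand, and the sources used here do not state whether counting used strand. Smoc2, Tnfrsf19, Olfm4 and Prom1 also overlap annotated non-coding genes, so some of the reads counted for these 6 members are uncertain. RefSeq promoter windows (GRCm38.p6) matched 6 of the 10 members. Ascl2 and Tnfrsf19 are shown because they had the largest fitted falls with KPT-330 over the time course. The 250 bases before their starts were searched on both strands for the TCF/LEF motif CTTTGA, the RBPJ motif TGGGAA and the E-box CAGCTG, and matches, none of which overlap, are in capitals. Ascl2 spans chr7:142969265-142969514 and the 2 starts of Tnfrsf19 have windows at chr14:61046856-61047105 and chr14:61037988-61038237, all on the minus strand and printed 5′ to 3′. The inner window overlaps an exon of the lincRNA Gm41168 on the other strand.
Ascl2: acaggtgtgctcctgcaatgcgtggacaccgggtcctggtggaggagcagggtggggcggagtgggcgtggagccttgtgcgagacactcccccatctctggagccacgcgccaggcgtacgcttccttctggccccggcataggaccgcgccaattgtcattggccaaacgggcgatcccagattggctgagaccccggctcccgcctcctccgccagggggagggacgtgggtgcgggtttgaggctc
Tnfrsf19, outer start: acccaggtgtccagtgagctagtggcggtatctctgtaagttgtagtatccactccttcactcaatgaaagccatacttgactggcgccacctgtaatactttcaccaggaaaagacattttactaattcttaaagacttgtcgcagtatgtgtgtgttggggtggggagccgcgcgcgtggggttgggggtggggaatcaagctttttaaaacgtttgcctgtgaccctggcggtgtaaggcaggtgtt
Tnfrsf19, inner start: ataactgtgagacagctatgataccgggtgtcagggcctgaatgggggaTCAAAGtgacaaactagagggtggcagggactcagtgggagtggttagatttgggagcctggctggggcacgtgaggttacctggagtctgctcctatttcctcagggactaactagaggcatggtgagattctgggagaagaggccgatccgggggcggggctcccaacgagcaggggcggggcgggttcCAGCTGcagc
The inner window of Tnfrsf19 held TCAAAG, the reverse complement of CTTTGA, 201 bases before the start and CAGCTG 10 bases before it, while the other windows shown held none of the 3 motifs. Of 32851 promoter windows of the same length, 13.8% held CTTTGA, 13.0% held CAGCTG and 21.6% held TGGGAA on either strand. A window of Prom1, which overlaps an annotated Prom1 exon, held TGGGAA 116 bases before its start, and that of Bmi1 held it 246 bases before its own, both on the opposite strand. The listed window of Olfm4 (chr14:80000052-80000301) lies inside the gene as annotated and overlaps an Olfm4 exon, so it does not show the start of the whole gene. These matches describe letters only.

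During untreated differentiation the signature did not move as a unit. Between day 0 and day 6, summed counts of Cfi, Tnfrsf19, Ascl2, Prom1 and Bmi1 rose and those of Olfm4 fell, while Lgr5, Smoc2, Slc12a2 and Lrig1 did not pass the threshold (edgeR quasi-likelihood test, adjusted p under 0.05, 2 libraries at each end, 9 untreated libraries in the fit). That is 5 of 10 members higher, where 21.1% of 13370 genes tested were higher, and 1 lower, where 21.7% were lower. The median log2 change of the members was 0.58, beside 0.01 over all genes.

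Among the receptors, Lgr5, which binds R-spondins, stood at 0.803 and 1.59 UMIs per 10000 in the 2 day 0 libraries, 1.12 at day 0.25, 1.25 at day 1, 2.33 at day 2, 2.49 at day 3, 2.85 at day 4, and 1.40 and 1.61 at day 6. The mean level was highest at day 4, 2.54-fold that of its lowest day (day 0.25), and by day 6 it was back near the higher of the day 0 libraries. From day 0 to day 6 its log2 change was 0.46 ± 0.24 (SE), with an adjusted p of 0.127, although without day 0 replicate 2 it passed the test (0.93, adjusted p = 0.001). Tnfrsf19, also called Troy, is a receptor of the tumour necrosis factor family and a Wnt target. It was at 0.319 and 0.331 at day 0, 0.367 at day 0.25, 0.389 at day 1, 0.660 at day 2, 0.868 at day 3, 1.05 at day 4, and 0.721 and 1.10 at day 6. Both day 6 libraries lay above all 4 libraries of days 0 to 1, and the log2 change from day 0 was 1.59 ± 0.21 (adjusted p = 3.89e-05). Lrig1, a transmembrane protein that restrains ErbB receptor signalling, ranged from 1.30 to 1.81 at day 0 and from 1.47 to 1.81 at day 6, with a peak of 2.44 at day 4 (log2 change 0.19 ± 0.20, adjusted p = 0.447).

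Of the nuclear regulators, Ascl2, a basic helix-loop-helix transcription factor that directs stem cell fate under Wnt, had few UMIs (22 and 81 at day 0). Its level was 0.0491 and 0.112 at day 0 and 0.112 and 0.203 at day 6, after 0.312 at day 4. The groups overlapped at 0.112, and the log2 change of 0.99 ± 0.34 (adjusted p = 0.0276) lost its call without day 0 replicate 1 (0.62, adjusted p = 0.083) or day 6 replicate 2 (0.60, adjusted p = 0.18). Bmi1, a subunit of a Polycomb repressive complex, stood at 0.382 and 0.430 in the day 0 libraries, below the 0.609 and 0.602 of day 6. Its log2 change was 0.70 ± 0.18 (adjusted p = 0.00565), but 0.64 without day 6 replicate 1 (adjusted p = 0.06).

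The secreted proteins went furthest apart. Olfm4, a secreted glycoprotein of the crypt base, was at 0.422 and 0.651 at day 0, 0.228 at day 0.25, 0.118 at day 1, 0.0400 at day 2, 0.0661 at day 3, 0.0385 at day 4, and 0.0113 in both day 6 libraries. The mean at day 0 was 47.6-fold that at day 6, where 14 and 5 UMIs remained, and the log2 change of -5.41 ± 0.32 had an adjusted p of 1.83e-08. The libraries of days 0.25 and 1 already lay below both day 0 libraries. Cfi, the complement factor I protease, ran the other way. It was at 0.368 and 0.406 in the day 0 libraries, 0.314 at day 0.25, 0.548 at day 1, 1.23 at day 2, 1.61 at day 3, 2.17 at day 4, and 2.92 and 2.88 at day 6. Its mean at day 6 was 7.49-fold that at day 0, a log2 change of 3.03 ± 0.20 (adjusted p = 3.88e-08). Smoc2, a secreted matrix-associated protein, was at 8.84 and 12.2 at day 0 and at 6.83 and 7.69 at day 6 without passing the test (log2 change -0.41 ± 0.23, adjusted p = 0.166), although the groups did not overlap.

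Of the membrane proteins, 1 of 2 rose. Prom1, the CD133 glycoprotein of membrane protrusions, rose from 2.91 and 2.49 to 4.09 and 4.45 (log2 change 0.77 ± 0.21, adjusted p = 0.00905). Slc12a2, the basolateral sodium-potassium-chloride cotransporter NKCC1 (chr18:57878678-57946821, plus strand), varied between 6.52 at day 2 and 10.1 at day 4 without passing the test between day 0 and day 6 (0.27 ± 0.22, adjusted p = 0.331). The highest day of Slc12a2 was 1.55-fold its lowest.

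**Figure D1:**
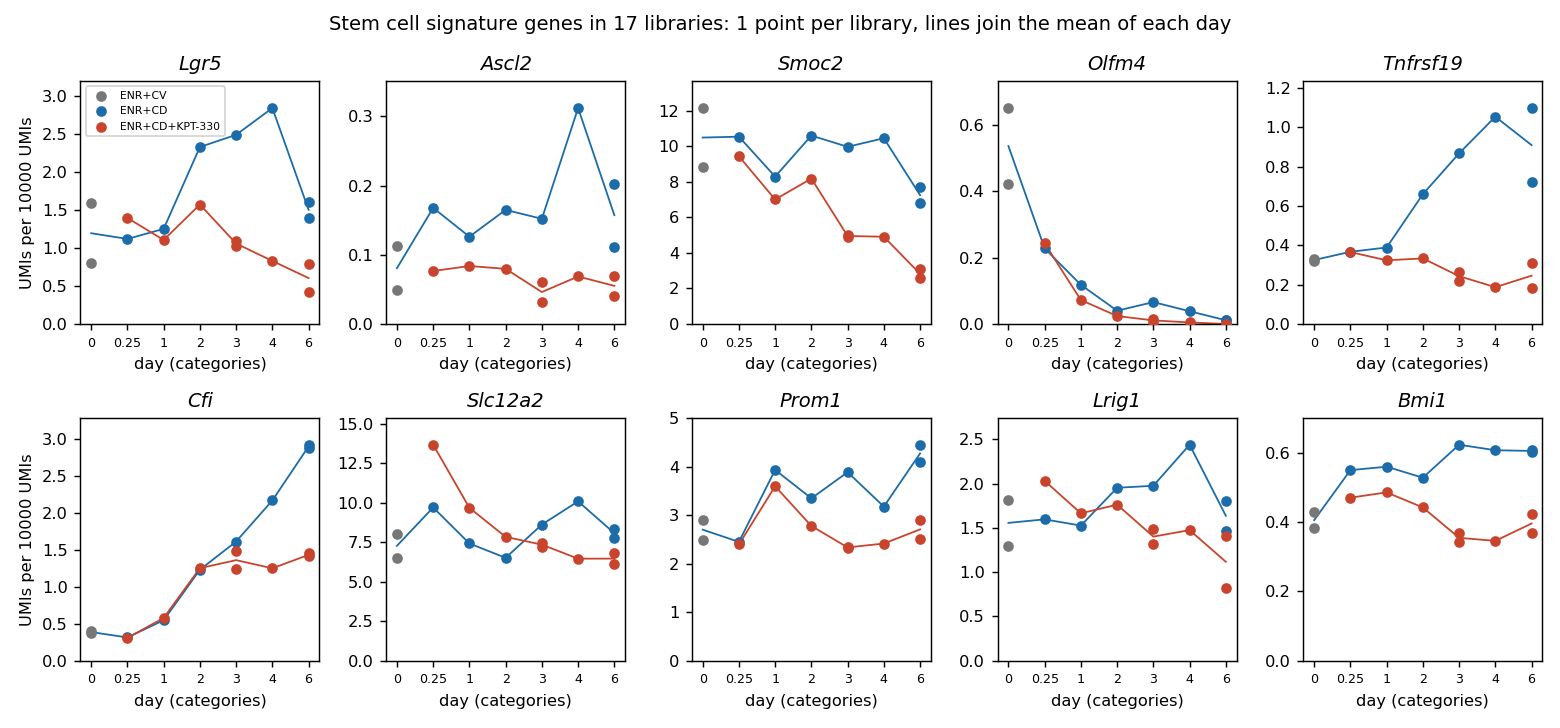
UMIs per 10000 UMIs of each member (vertical axis, from 0) in each of the 17 libraries by day (horizontal axis, evenly spaced categories), in ENR+CV (grey), ENR+CD (blue) and ENR+CD with KPT-330 (red), with lines through the mean of each day. Olfm4 declines from day 0, Cfi and Tnfrsf19 climb in controls to 2.92 and 1.10 at day 6, and Lgr5 peaks in the control at day 4.

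With all 9 untreated libraries grouped as days 2 to 6 against days 0 to 1, 4 members were higher (Cfi, Tnfrsf19, Lgr5 and Lrig1) and Olfm4 was lower, against 24.1% higher and 24.4% lower of all genes. The log2 changes were 2.46 ± 0.29 for Cfi, 1.35 ± 0.17 for Tnfrsf19, 0.88 ± 0.21 for Lgr5 and -3.34 ± 0.52 for Olfm4 (adjusted p from 0.000133 to 0.00444), and 0.34 ± 0.13 for Lrig1 (adjusted p = 0.0461), whose call was lost without either day 0 library or without day 6 replicate 2 (adjusted p of 0.171, 0.076 and 0.084). This grouping almost coincides with the set of libraries that list more genes. Without those 5 libraries, day 0 replicate 2 alone stood for the early days, 14.5% of genes were higher and 16.5% lower. Cfi (2.57), Tnfrsf19 (1.55) and Olfm4 (-4.13) kept their calls, Bmi1 gained one (0.61), and Lgr5 (0.56, adjusted p = 0.23) and Lrig1 (0.23, adjusted p = 0.44) lost theirs.

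Of 33 other genes listed for the crypt base columnar programme and its Wnt response, 32 were tested for comparison. From day 0 to day 6, 15 rose and 7 fell, where 21.1% of all genes tested were higher and 21.7% lower, so the share that fell was near that of all genes. The median log2 change of the 32 was 0.55. The rises with the smallest p were those of Nkd1 (3.83), an inhibitor of Wnt signalling induced by it, Notum (7.47), a secreted enzyme that inactivates Wnt ligands and had only 2 and 3 UMIs at day 0, Sp5 (1.53), a Wnt-responsive transcription factor, and Rnf43 (1.22), a ubiquitin ligase that removes Wnt receptors. The falls with the smallest p were those of Aqp4 (-3.41), a water channel, Cd44 (-1.45), a hyaluronan receptor, Cdca7 (-1.07) and Nrn1 (-1.37). All 20 proliferation markers fell over the same days, 12 of 13 tested Paneth markers rose and 11 of 11 enteroendocrine markers rose. The part of these shifts in the members' changes was not tested.

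Within untreated libraries, most members were higher in cycling cells, defined as those with at least 1 UMI of Mki67. 7 of 10 members were higher (21.7% of 11727 genes tested) and 1 was lower (22%), with the library as a term in the edgeR fit and both classes measured in each of 9 libraries. Ascl2 and Olfm4 differed most, Cfi was lower in cycling cells, and Lgr5 and Prom1 did not pass the test. Cycling cells numbered 4061 and were deeper, with a median of 5388 UMIs against 4577 in 6985 non-cycling cells. With cells thinned to 2000 UMIs, 6 members were higher, without Lrig1, where 14.3% of genes were. In the same comparison 12 of 12 enterocyte markers and 11 of 13 tested Paneth markers were lower in cycling cells, and the part of these cell types in the members' differences was not tested.

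Ascl2 was higher in cycling cells in 9 of 9 libraries, at 0.251 ± 0.169 UMIs per 10000 (SD, n = 9) against 0.114 ± 0.0750, a log2 difference of 0.97 ± 0.14 (adjusted p = 3.65e-05). The per-library log2 ratios ran from 0.65 to 2.04. Olfm4 was higher in 8 of 9 libraries, with a log2 difference of 1.05 ± 0.37 (adjusted p = 0.0315) and the opposite direction at day 1 (-1.25). Its mean over all cells was 0.0113 UMIs per 10000 in the day 6 controls, so its directions there rest on few UMIs. Slc12a2 was higher in 9 of 9 libraries (9.38 ± 1.47 against 6.87 ± 1.97, log2 difference 0.37 ± 0.08), and so were Lrig1 (0.23 ± 0.07) and Bmi1 (0.22 ± 0.07). Smoc2 was higher in 8 of 9 (10.8 ± 1.77 against 8.03 ± 1.93, 0.33 ± 0.09). Tnfrsf19 had a log2 difference of 0.26 ± 0.10 (adjusted p = 0.0491), and lost its call when any one of the replicated libraries was left out (adjusted p from 0.081 to 0.168).

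Lgr5 was nearly even between the classes: it was higher in cycling cells in 6 of 9 libraries, at 1.82 ± 0.728 against 1.63 ± 0.756, with a log2 difference of 0.07 ± 0.09 (adjusted p = 0.582). Prom1 was likewise near 0 (-0.08 ± 0.07, adjusted p = 0.355). Cfi was the exception, lower in cycling cells in 8 of 9 libraries (1.19 ± 0.871 against 1.46 ± 1.08, log2 difference -0.42 ± 0.08, adjusted p = 0.000637). Lrig1 and Bmi1 were not called without day 0 replicate 1 (adjusted p of 0.069 and 0.118), and Olfm4 was not called without day 0 replicate 2 or day 6 replicate 1 (0.089 and 0.054). With 1 day 0 library left out, 4 members were higher: Ascl2, Slc12a2 and Smoc2 in both cases, with Olfm4 where replicate 1 was left out and Lrig1 where replicate 2 was. Within the 3 untreated libraries that list more genes, Ascl2 (1.23) and Slc12a2 (0.45) were higher, where 10% of genes were, and Cfi (-0.61) was lower. Without them 6 members were higher, where 16.7% of genes were, and Cfi was lower.

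**Figure D2:**
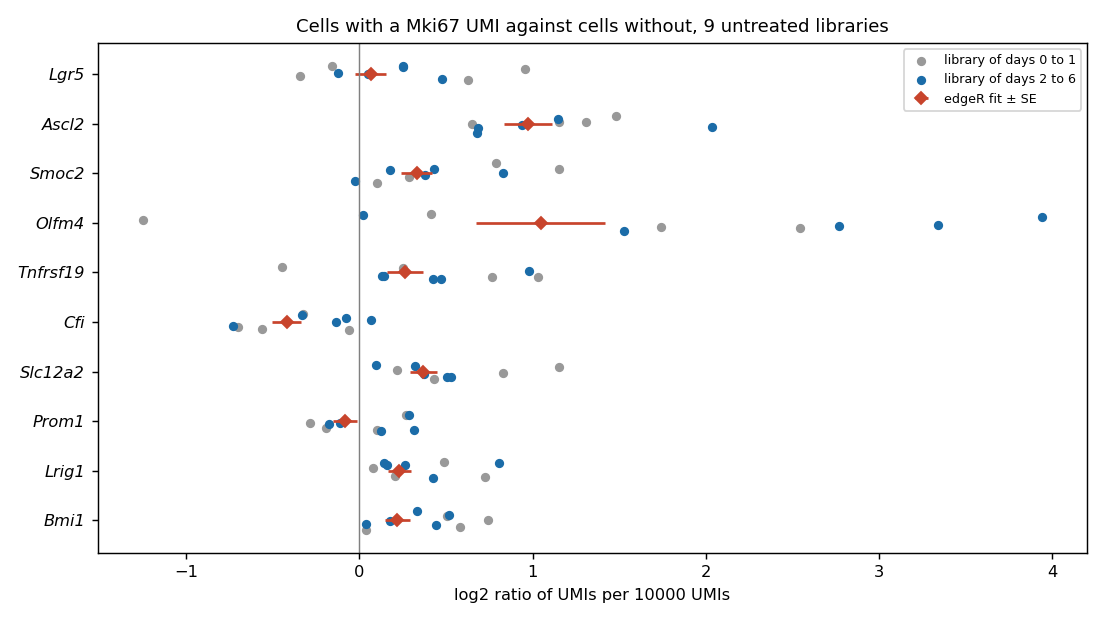
log2 ratio of UMIs per 10000 UMIs between cells with and without a Mki67 UMI (horizontal axis) for each member (vertical axis) in each untreated library, grey for days 0 to 1 and blue for days 2 to 6, with the edgeR estimate ± SE as a red diamond. Ascl2, Slc12a2, Lrig1 and Bmi1 lie above 0 in all 9 libraries, whereas Cfi lies below 0 in 8.

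Whether the difference between cycling and non-cycling cells itself changed between days 0 to 1 and days 2 to 6 was tested as an interaction, and no member passed (0.989% of genes were higher and 0.0853% lower); none passed with DESeq2 or at an unadjusted p under 0.05 either. Of the other crypt base genes, 8 of 32 were higher in cycling cells, a share near the 21.7% of all genes higher in that comparison, and 1 was lower. Cdca7 (0.95), Aqp4 (0.88), Cd44 (0.87) and Igfbp4 (0.53) led the former, and Notum (-1.42) was the latter.

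With KPT-330, 6 members were lower over the time course and none was higher (0 higher also with DESeq2 and, in edgeR, at an unadjusted p under 0.05). In a fit of a single effect over all days, Lgr5, Ascl2, Smoc2, Olfm4, Tnfrsf19 and Bmi1 were lower with KPT-330 than in control. Cfi, Slc12a2, Prom1 and Lrig1 did not pass the test (edgeR, 8 against 7 libraries with day as a term). This fit does not show a fall at each day, as the levels of Lgr5 and Olfm4 were higher with KPT-330 at day 0.25. Of 12812 genes, 14.2% were lower and 14.4% were higher. The median log2 change of the members was -0.40, beside -0.00 over all genes. 9 of the 10 estimates were negative, and each comparison below shares the same 7 control libraries.

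Tnfrsf19 in control and treated libraries began together, at 0.367 and 0.365 at day 0.25, and drew apart: 0.389 and 0.324 at day 1, 0.660 and 0.333 at day 2, 0.868 against 0.266 and 0.221 at day 3, 1.05 and 0.187 at day 4, and 0.721 and 1.10 against 0.181 and 0.310 at day 6. Its climb in controls was absent from the treated libraries, none of which exceeded 0.365. The log2 change over all days was -1.10 ± 0.21 (adjusted p = 0.00244). Lgr5 was higher with KPT-330 at day 0.25 (1.40 against 1.12), close at day 1 (1.11 against 1.25) and lower from day 2, at 1.58 against 2.33, then 1.09 and 1.03 against 2.49 at day 3, 0.831 against 2.85 at day 4, and 0.425 and 0.784 against 1.40 and 1.61 at day 6. Treated and control libraries did not overlap at day 6, and the log2 change was -0.62 ± 0.16 (adjusted p = 0.0130).

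Lrig1 followed a similar order without passing the test (-0.03 ± 0.10, adjusted p = 0.821). It was higher with KPT-330 at day 0.25 (2.03 against 1.60) and day 1 (1.67 against 1.53) and lower at each later day, reaching 0.822 and 1.41 against 1.47 and 1.81 at day 6. In the fit without the 5 libraries that list more genes, which leaves days 2 to 6, its change was -0.17 (adjusted p = 0.22).

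Ascl2 was lower with KPT-330 at each of the 6 days. In control it was 0.168, 0.126, 0.165, 0.152, 0.312, then 0.112 and 0.203 from day 0.25 to day 6, and with KPT-330 it was 0.0766, 0.0838, 0.0797, then 0.0611 and 0.0313 at day 3, 0.0687 at day 4, and 0.0403 and 0.0700 at day 6. No treated library reached the lowest control library, and the log2 change was -1.12 ± 0.18 (adjusted p = 0.00114). Bmi1 was also lower at each day, with 0.341 to 0.486 in 8 treated libraries (median 0.396) and 0.528 to 0.623 in 7 control libraries (median 0.602), which did not overlap. Its fitted log2 change, scaled by TMM, was small, -0.25 ± 0.07 (adjusted p = 0.0184). The levels include the Paneth marker UMIs in their totals, and their log2 ratios ran from -0.20 at day 1 to -0.81 at day 3.

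Smoc2 was lower at each day too, from 9.45 against 10.6 at day 0.25 to 2.58 and 3.07 against 6.83 and 7.69 at day 6, with a log2 change of -0.54 ± 0.12 (adjusted p = 0.00490). Olfm4, already low, had 111 UMIs with KPT-330 and 182 in control at day 0.25, levels of 0.243 and 0.228, but 2 UMIs against 27 at day 4 and 0 in both treated libraries at day 6, which allows up to 0.00672 and 0.0075 UMIs per 10000, against 14 and 5 UMIs in control. Its log2 change of -1.01 ± 0.34 (adjusted p = 0.0380) lost its call when any 1 of the replicated libraries was left out except KPT-330 day 6 replicate 2 (adjusted p from 0.053 to 0.066). Cfi kept pace with control until day 2 (1.25 against 1.23) and then levelled off at 1.24 to 1.48 while controls reached 2.92. Over all days its log2 change was -0.15 ± 0.12 (adjusted p = 0.348), although at day 6 its level in treated libraries was 1.45 and 1.41, below both controls.

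Slc12a2 began higher with KPT-330. At day 0.25 it was 13.7 in the treated library and 9.71 in the control, then 9.69 against 7.43 at day 1 and 7.85 against 6.52 at day 2, and at 7.48 and 7.23 against 8.63 at day 3, 6.47 against 10.1 at day 4, and 6.11 and 6.83 against 7.80 and 8.35 at day 6. The order of the levels thus turned between day 2 and day 3, while the fitted change of Slc12a2, scaled by TMM, was 0.09 over days 2 to 6 (adjusted p = 0.56) and 0.21 ± 0.10 over all days (adjusted p = 0.136). Within the 4 libraries of days 0.25 and 1 it passed the test (0.50, adjusted p = 0.0089). That fit had 1 library in each arm at each day, so no replicates entered its spread. Prom1 was lower at each of the 6 days, by little at first (2.40 against 2.45 at day 0.25) and at 2.51 and 2.90 against 4.09 and 4.45 at day 6, without passing over all days (-0.16 ± 0.08, adjusted p = 0.144).

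Without the 5 libraries that list more genes, which leaves days 2 to 6, the same 6 members were lower, where 15.1% of genes were, with log2 changes of -1.46 for Tnfrsf19, -1.24 for Ascl2, -0.91 for Lgr5, -0.70 for Smoc2, -1.78 for Olfm4 and -0.30 for Bmi1. Within the 4 libraries of days 0.25 and 1 none was lower (1 at an unadjusted p under 0.05), with Ascl2 at -0.83 and Lgr5 at 0.14. In that smaller fit 2.19% of 11227 genes were lower and 2.77% higher, so calls of any gene were few. The difference between the later and earlier effects was negative for all 10 members, at -1.38 ± 0.31 for Tnfrsf19, -1.04 ± 0.25 for Lgr5 and -1.53 ± 0.57 for Olfm4, but none passed after adjustment (adjusted p of 0.368, 0.368 and 0.432), as no gene among 12812 did (0% in each direction). At an unadjusted p under 0.05, 5 members were lower, and 642 genes were higher and 641 lower, and with DESeq2 1 member (Tnfrsf19) and 20 genes passed. Over all days but day 3, 3 members were lower, Ascl2, Smoc2 and Tnfrsf19, where 7.95% of genes were.

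The composition of the libraries shifted alongside. Paneth-marker-high cells, defined here as those with at least 5% of UMIs from the Paneth marker list, made up 53.5% and 47.2% of cells in the day 6 controls and 84.8% and 65.8% with KPT-330. With these cells left out, where 9.75% of 12524 genes were lower, 4 members remained lower: Lgr5 (-0.82, adjusted p = 0.027), Ascl2 (-1.23, adjusted p = 0.0036), Smoc2 (-0.85, adjusted p = 0.016) and Tnfrsf19 (-1.14, adjusted p = 0.010). Olfm4 (-0.93) and Bmi1 (-0.19) were no longer called, and Slc12a2 changed sign (-0.23, adjusted p = 0.41). Over all cells, 14 of 20 proliferation markers were lower with KPT-330, 7 of 11 enteroendocrine markers were lower and 11 of 13 tested Paneth markers were higher, and the part of these cell types in the members' changes was otherwise not tested. Summed stromal markers were at most 0.0794 UMIs per 10000 in control and 0.0491 with KPT-330, and summed immune markers at most 0.339 and 0.727. Both immune maxima were at day 4, where Ptprc and Cd79a had no UMI in the control library and Ptprc, Cd52 and Cd3e had none in the treated library.

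**Figure D3:**
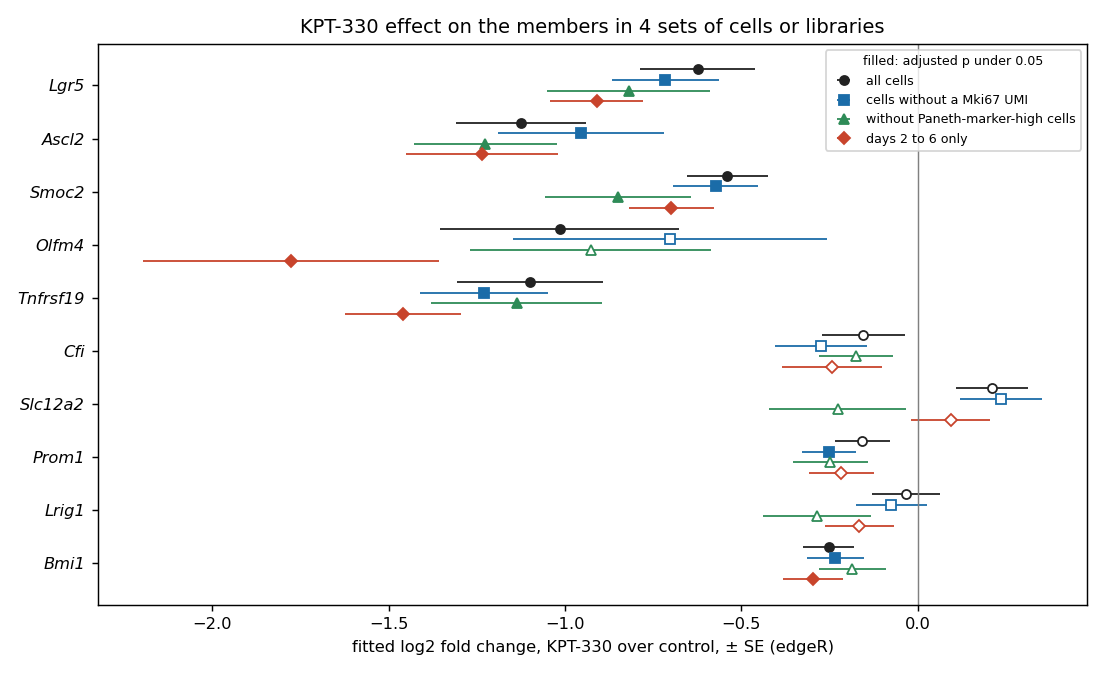
Fitted log2 fold change of KPT-330 over control ± SE (horizontal axis) for each member (vertical axis) in all cells, in cells without a Mki67 UMI, in cells outside the Paneth-marker-high class and in days 2 to 6 only, with filled symbols for an adjusted p under 0.05. Lgr5, Ascl2, Smoc2 and Tnfrsf19 are filled in all 4 sets, and Slc12a2 lies on both sides of 0.

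Among the other crypt base genes, 11 of 32 were lower with KPT-330 and none was higher, where 14.2% of all genes were lower and 14.4% higher. Igfbp4 (-1.89), a binding protein for insulin-like growth factors, Msi1 (-0.73), an RNA-binding protein, Aqp4 (-1.32) and Nkd1 (-0.65) had the smallest p. Igfbp4 at day 6 was 0.0582 and 0.102 with KPT-330 and 0.568 and 0.663 in control.

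Divided by Mki67, the non-cycling cells showed the same direction. In them 6 members were lower with KPT-330 and none was higher (13.8% of genes lower, 12.8% higher): Tnfrsf19 (-1.23 ± 0.18), Ascl2 (-0.96 ± 0.24), Lgr5 (-0.72 ± 0.15), Smoc2 (-0.57 ± 0.12), Prom1 (-0.25 ± 0.08) and Bmi1 (-0.23 ± 0.08), with adjusted p from 0.000503 to 0.0447. With DESeq2 5 members were lower, without Bmi1 (adjusted p = 0.076), where 9.78% of genes were. Without the 5 libraries that list more genes, 6 were lower, where 13.7% of genes were, with Olfm4 (-1.59, adjusted p = 0.0133) in place of Prom1 (-0.26, adjusted p = 0.057). The call of Bmi1 was lost when any of the 6 replicated libraries was left out (adjusted p from 0.057 to 0.073), and that of Prom1 without control day 6 replicate 2 or KPT-330 day 6 replicate 1 (0.055 and 0.051). In cycling cells, which numbered 1569 with KPT-330, 1 member was lower, Ascl2 (-1.13 ± 0.28, adjusted p = 0.0242), where 1.76% of genes were lower and 4.15% higher. Tnfrsf19 (-0.87 ± 0.26), Lgr5 (-0.50 ± 0.16), Smoc2 (-0.40 ± 0.13) and Bmi1 (-0.39 ± 0.12) had adjusted p from 0.0594 to 0.0757 there, and between 0 and 5 members were lower under other definitions of the class, tests and sets of days. Without day 0.25 Lgr5 and Tnfrsf19 were lower and Ascl2 was not, and without day 3 no member was, where 0.79% of genes were lower. Without the 5 libraries, Lgr5 (-0.78), Tnfrsf19 (-1.34) and Bmi1 (-0.57) were lower, where 2% of genes were, and Ascl2 was not (-1.15, adjusted p = 0.079).

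A test of the difference between the classes found no member with an effect of KPT-330 that differed (0.0423% of genes higher and 0.0592% lower), and none passed with DESeq2. At an unadjusted p under 0.05, Cfi (0.39 ± 0.13) and Prom1 (0.25 ± 0.08) had the less negative estimates in cycling cells, with adjusted p of 0.339 and 0.361. Of the other crypt base genes, 16 of 32 were lower in non-cycling cells, where 13.8% of all genes were, and 3 of 30 in cycling cells, where 1.76% were. The 2 counts are therefore not comparable with each other. Igfbp4 was lower in both (-2.04 and -1.33).

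The other members were enriched in cells in which Lgr5 was detected. In the untreated libraries, 4653 cells had at least 1 UMI of Lgr5 and 6393 had none, and 8 of the 9 other members were higher in the former, where 23.8% of 12323 genes were higher and 19.2% lower. Lgr5 itself defines the classes and was not tested. The median log2 difference of the 9 members was 0.78, beside 0.05 over all genes.

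Tnfrsf19 differed most, at 1.13 ± 0.608 UMIs per 10000 (SD, n = 9) in Lgr5-detected cells and 0.278 ± 0.147 in the others, a log2 difference of 1.84 ± 0.19 (adjusted p = 8.72e-06) and higher in 9 of 9 libraries. Its per-library log2 ratio ran from 0.62 at day 0 replicate 2 to 3.41 at day 2. Smoc2 followed with 14.7 ± 2.29 against 5.41 ± 2.08 (1.35 ± 0.15, adjusted p = 1.93e-05), and Ascl2 with 0.229 ± 0.116 against 0.0924 ± 0.0488 (1.23 ± 0.22, adjusted p = 0.000700).

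Cfi was at 2.03 ± 1.62 against 0.902 ± 0.741 (0.98 ± 0.11), so that it went with Lgr5 within libraries although it was lower in cycling cells. Slc12a2 (0.78 ± 0.13), Lrig1 (0.68 ± 0.07), Prom1 (0.49 ± 0.06) and Bmi1 (0.24 ± 0.07, adjusted p = 0.0118) were also higher, each in 9 of 9 libraries. Olfm4 was higher in 6 of 9 libraries and did not pass (0.57 ± 0.31, adjusted p = 0.159). Lgr5-detected cells were deeper (median 5226 UMIs against 4658), and 17 of 20 proliferation markers were higher and 11 of 12 enterocyte markers lower in them. With each cell thinned to 2000 UMIs before the split, 8 members were higher, with Olfm4 (0.69, adjusted p = 0.023) in place of Bmi1 (0.21, adjusted p = 0.15), where 9.63% of genes were higher, and among cells without Mki67 all 9 were, where 17.6% were. Without the libraries that list more genes, 7 members were higher, where 17.7% of genes were, and Bmi1 was no longer called (0.20, adjusted p = 0.072). In the main fit, where 23.8% of all genes were higher and 19.2% lower, 27 of the 32 other crypt base genes were higher too and none was lower. Sp5 (1.10), Nkd1 (1.59), Axin2 (1.11) and Rnf43 (0.95) led them.

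**Figure D4:**
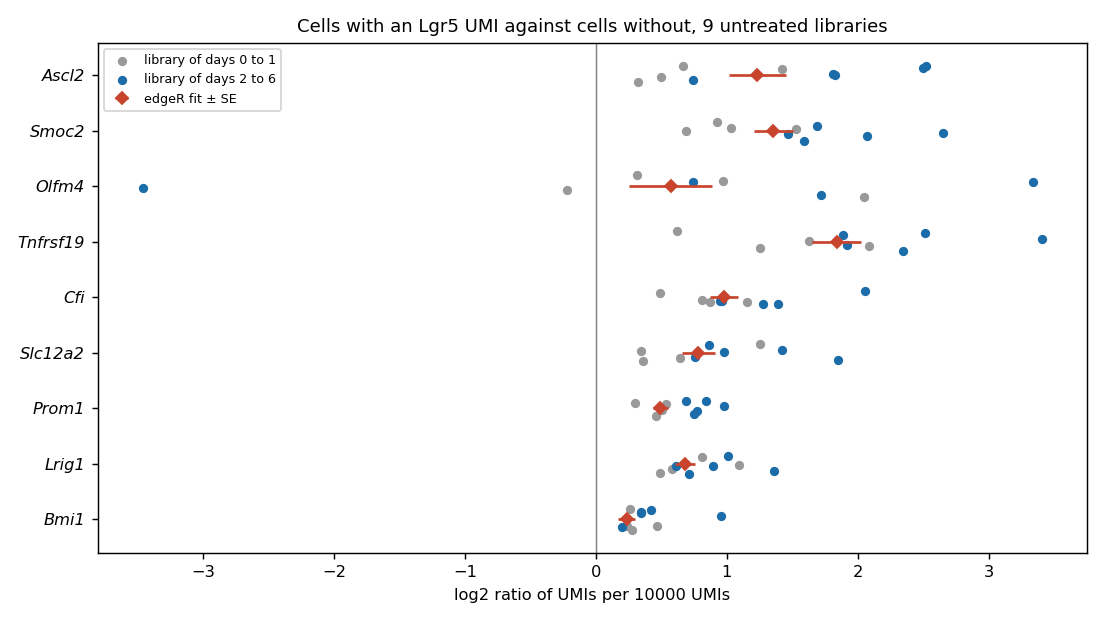
log2 ratio of UMIs per 10000 UMIs between cells with and without an Lgr5 UMI (horizontal axis) for the other 9 members (vertical axis) in each untreated library, grey for days 0 to 1 and blue for days 2 to 6, with the edgeR estimate ± SE as a red diamond; a library with no Olfm4 UMI in 1 class has no point. Apart from Olfm4, whose estimate is 0.57 ± 0.31, each member lies above 0 in all 9 libraries.

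Members also differed in whether they went with Paneth markers in the same untreated libraries, a comparison added after seeing the data. In the 8 untreated libraries with at least 20 Paneth-marker-high cells, levels were taken per 10000 UMIs outside the Paneth list, so that the marker genes themselves did not dilute them. Ascl2 was lower in Paneth-marker-high cells in 8 of 8 libraries, at 0.0678 ± 0.0367 (SD, n = 8) against 0.238 ± 0.144 in the other cells, although it had as few as 1 UMI in that class in a library. Bmi1 was lower in 8 of 8 as well, at 0.474 ± 0.0746 against 0.665 ± 0.159. These values are given without a test.

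The remaining 8 members varied in direction between libraries, in part with the day. In each library of days 3 to 6, Lgr5, Smoc2, Olfm4 and Tnfrsf19 were lower in Paneth-marker-high cells and Lrig1 was higher, while Cfi, Slc12a2 and Prom1 varied. Tnfrsf19 was there at 0.285 to 0.349 against 1.16 to 1.99, whereas Olfm4 had at most 3 UMIs in those cells. Rises of Lgr5, Smoc2 and Tnfrsf19 fell within days 0.25 to 2, with only 23 and 36 Paneth-marker-high cells at days 0.25 and 1. Cfi was higher in 6 of 8 libraries (2.04 ± 1.05 against 1.65 ± 1.35) and Lrig1 in 7 of 8 (2.20 ± 0.512 against 1.90 ± 0.395), while Slc12a2 was even at 8.97 ± 1.28 and 8.97 ± 1.99. Lgr5 was at 1.78 ± 0.666 and 2.24 ± 0.988, lower in 5 of 8 libraries, and Tnfrsf19 at 0.456 ± 0.243 and 0.990 ± 0.653, lower in 6. Paneth-marker-high cells were mostly from later days, so shares of cells with a UMI are given within the day 6 controls, thinned to 2000 UMIs per cell. The 2000 UMIs include those of the Paneth list, so Paneth-marker-high cells kept fewer for other genes and their shares are lowered by this. Outside the Paneth list, the day 6 levels of Lgr5 were 1.05 against 2.13 in replicate 1 and 1.13 against 2.42 in replicate 2. In replicate 1 an Lgr5 UMI was found in 14.2% of 678 Paneth-marker-high cells (95% exact interval 11.6 to 17.0) and 31.4% of 589 others (27.7 to 35.3), and in replicate 2 in 12.3% of 570 (9.70 to 15.3) and 34.9% of 559 (30.9 to 39.0). Before thinning the shares of Lgr5 were 36.4% and 56.7% in replicate 1 and 19.3% and 39.3% in replicate 2. For Cfi the thinned shares were 35.4% and 33.6% in replicate 1 but 26.1% and 43.6% in replicate 2, so its order was not shared by the libraries. Its levels outside the Paneth list were 3.94 against 2.98 in replicate 1 and 2.57 against 3.92 in replicate 2. The intervals cover counting error only, and cells of a library are not replicates. Free RNA was not assessed.

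**Figure D5:**
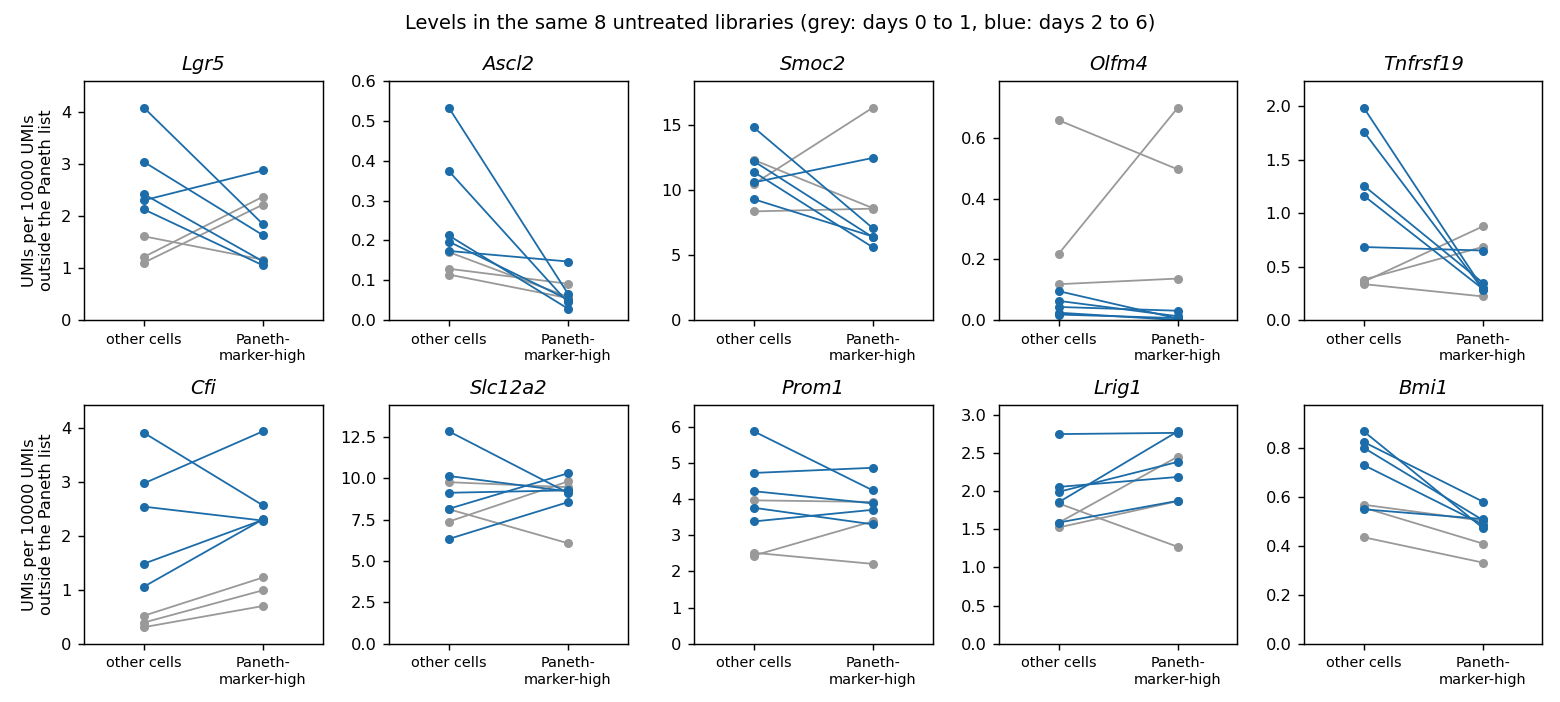
UMIs per 10000 UMIs outside the Paneth marker list (vertical axis, from 0) of each member in other cells and in Paneth-marker-high cells (horizontal axis), with a line per untreated library, grey for days 0 to 1 and blue for days 2 to 6, in 8 libraries. The Ascl2 and Bmi1 lines fall in all 8 libraries, whereas those of Slc12a2 rise in 4 and fall in 4.

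Counted per cell, 4 or more of the 10 members were detected, after thinning, in 25.4% of control cells and 26.7% of KPT-330 cells at day 0.25 and in 26.9% and 27.6% at day 1. The shares were 35.6% and 28.7% at day 2, 36.2% against 20.4% and 21.1% at day 3, and 40.5% against 17.0% at day 4. At day 6 they were 29.7% and 34.4% in control and 9.07% and 12.6% with KPT-330, with no overlap. Thinning left out at most 321 cells of a library (day 4 with KPT-330). The thinned UMIs include those of the Paneth markers, which at day 6 summed to 1450 and 1424 per 10000 in control and to 2243 and 2157 with KPT-330. The part of these UMIs, and of the larger share of Paneth-marker-high cells with KPT-330, in the day 6 difference was not tested.

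Across the 17 libraries, the genes whose log2 CPM (counts scaled to library size) were most like those of Lgr5 were Ctdsp2, Soat1, Bag6, Mtch1 and Ccni (Pearson r from 0.94 to 0.95 among 7181 genes). Lrig1 stood 17th in that order with r = 0.91, Tnfrsf19 had 0.81, Smoc2 and Ascl2 0.78, Bmi1 0.71, Slc12a2 0.46, Prom1 0.44, Olfm4 0.28 and Cfi 0.19. These values are descriptions over libraries that share days, treatment and depth.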

How the data were processed

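UMI counts per gene symbol and barcode were deposited without normalization. The authors used bcl2fastq per the submitters' processing notes, STAR alignment to mm10 and the Drop-seq tools, for which the study's methods and reporting summary name different versions. Whether counting used strand is not given in the sources used here. The cells kept were those named in the authors' merged table, after the authors had removed doublets, which was not repeated. Libraries held 531 to 1547 kept cells and 3458887 to 12433109 UMIs, so low members such as Ascl2 and Olfm4 rest on few UMIs.

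Counts were summed per library, or per library and cell class, and tested in R 4.3.3 with edgeR 4.0.16 (TMM factors, filterByExpr with a minimum count of 10, quasi-likelihood tests, Benjamini-Hochberg adjustment over all genes tested, threshold 0.05). The rest used Python 3.11.15 with numpy 2.4.6, pandas 2.3.3, scipy 1.17.1 and matplotlib 3.10.9. Levels are UMIs per 10000 UMIs of the library or class. The floor for a count of 0 is 3 counts, and intervals and floors cover counting error only. The scripts were tested on simulated data.

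The 10 members were named in every comparison, with up to 4 higher and 4 lower other crypt base columnar genes of smallest p, and the 5 genes most correlated with Lgr5. Members, lists and comparisons were chosen with earlier results of these data known, the split by Paneth markers after seeing the data. Mki67 and Lgr5 define classes and were not tested in them. Alternatives were DESeq2 1.42.0 and its size factors, no count filter, other cell filters and class definitions, leaving out libraries, days, Paneth genes or cells, and the replicate number as a block.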

Additional observations from a re-analysis of the deposited data

Results flagged for a closer look

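The level of Lrig1 with KPT-330 lay on opposite sides of control early and late. Both treated libraries of days 0.25 and 1 were above the control of their day, and each treated library of days 2 to 6 was below the control mean of its day. These levels are shares of all UMIs, the Paneth marker UMIs included, and the libraries of days 0.25 and 1 all list more genes. Fitted changes of Lrig1, scaled by TMM, did not pass the test within either set of days. The log2 difference between the later and the earlier effect was -0.46 ± 0.18, which did not pass adjustment in edgeR (adjusted p = 0.442, unadjusted p = 0.0261). Groups held at most 2 libraries, too few to look for a single distant one.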

How the results depend on the processing

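Of the member values under 170 alternative fits, 1154 kept their direction and side of the threshold, 35 passed where they had not, 88 no longer passed and 12 changed sign. For KPT-330 in all cells (6 members lower), 3 were lower without day 3, where 7.95% of genes were. In the libraries that list more genes 0 were lower and 1 was higher, where 2.19% of genes were lower and 2.77% higher. There Lgr5 was at 0.14, Cfi at 0.093 and Lrig1 at 0.30. These alternatives on sets of libraries were chosen after seeing the data. Lrig1 was 0.0093 without day 4, and Slc12a2 was -0.23 without Paneth-marker-high cells. For later against earlier days of KPT-330, 3 members were lower without the count filter and 1 with DESeq2. With DESeq2 0.0486% of genes were lower. Genes called in either direction for this comparison ran from 0 to 254 under alternatives, and its counts of members are not separable from this. For cycling cells, 2 members were higher in the libraries that list more genes, where 10% of genes were, with Lgr5 at -0.11 and Tnfrsf19 at -0.027. Lgr5 was -0.070 in thinned cells, and Prom1 was 0.0039 without the 5 libraries. For KPT-330 in cycling cells (1 member lower), 4 were lower without the count filter and with DESeq2. In thinned cells, without day 3 or with 2 or more Mki67 UMIs 0 were lower. Without day 0.25 the count was 2, without day 1 or the 5 libraries 3, and with cycling defined from 4 genes 5. Of all genes, 1.71% were lower with DESeq2, 0.408% in thinned cells, 0.79% without day 3 and 2% without the 5 libraries. Genes called in either direction ran from 74 to 1435 under alternatives, and the counts of members are not separable from this. The causes were not tested. Leaving out 1 of the replicated libraries gave 4 to 6 members higher in cycling cells and 5 to 6 lower with KPT-330 in all cells. Genes called in either direction numbered 4556 to 4920 and 2881 to 3969 in these fits. Lgr5 in cycling cells ranged from -0.026 to 0.053 and Lrig1 with KPT-330 from -0.062 to 0.013. Slc12a2 in untreated days 2 to 6 against days 0 to 1 ranged from -0.0076 to 0.064. Libraries without a replicate were not left out singly.

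With the replicate block, 2 members were lower with KPT-330 in cycling cells, and 1 (Cfi, 0.44) differed between the classes, where 67 genes passed against 12. It also gave calls to Lgr5 at day 6 (0.52) and to Prom1 (0.61) and Bmi1 (0.49) on later days, and took those of Lrig1 on later days (0.20), Olfm4 with KPT-330 (-0.94) and Bmi1 in non-cycling cells (-0.21). The numbers are the same in both arms at each day but day 3, and only day 6 has 2 libraries in both arms. There the deviations of replicate 1 correlated at 0.62 over 7649 genes, and nothing says that numbers pair the libraries.

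Genes called numbered 5731 at day 6 against day 0 (3745 to 6397 under alternatives), 3661 with KPT-330 (557 to 3992), 0 for its later against earlier days (0 to 254), 5121 in cycling cells (2093 to 5812), 126 for their change with days (47 to 385), 620 with KPT-330 in cycling cells (74 to 1435), 3218 in non-cycling cells (1682 to 3725), 12 between these classes (3 to 90) and 5303 with Lgr5 (2509 to 5293). With 1 library per arm at most days, a difference at a single day has no replicate check there, and Olfm4 with KPT-330 at day 6 could not be followed below the limit that a count of 0 allows.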
